A study of Rattus norvegicus with 11 samples.

Results

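The genes described here, 9 in all, serve the path that carries glucose into muscle and stores it as glycogen, and were listed as Slc2a4, Slc2a1, Hk1, Hk2, Gys1, Gsk3a, Gsk3b, Pygm and Gbe1. The rows were taken by symbol, by a rule that uses no measured value, and 8 of the 9 have a row in the count table of 16810 genes. Hk1, a hexokinase, is not analysed here. All 8 passed the filter on low counts, which kept 10814 genes. RNA was taken from the soleus, a calf muscle that holds posture and in the rat consists mostly of slow fibres, in 11 Sprague Dawley males. They were 12 months old, and no 2 shared a litter. In the control group (6 animals) the mothers ate chow with 6% or 7% fat (the labels give both figures) and 10% sucrose. In the high-fat group (5 animals) the mothers ate 23.3% or 23.5% fat and 20% sucrose. Either diet was eaten from 3 weeks before mating until the end of lactation. The offspring of both groups were weaned on day 21 to the same standard chow and were fasted before the tissue was taken, so the groups differ, as far as the labels say, by the mother's diet alone.

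Glucose enters a muscle fibre through GLUT4 (Slc2a4), which insulin and contraction bring from internal vesicles to the surface, and through GLUT1 (Slc2a1), which many cell types use for basal uptake. Hexokinase 2 (Hk2) phosphorylates it and so traps it in the cell. Glycogen synthase (Gys1) and the branching enzyme (Gbe1) build glycogen, glycogen synthase kinase 3 (Gsk3a and Gsk3b) inhibits the synthase, and muscle glycogen phosphorylase (Pygm) takes glycogen apart. Much of this control acts on the proteins, which were not measured here.

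Libraries held 10.2 to 15.4 M counts (M, mega), and 12333 to 12886 genes had a count in each. The slow fibre markers Myh7 and Tnni1 were abundant in all 11 libraries, with Myh7 at 17356 to 25131 CPM (counts per M counts, after TMM scaling of the libraries). Fast fibre markers summed to 11197 CPM in the lowest library and 48070 CPM in the highest, both from control animals, and the high-fat group ran from 11729 to 39562 CPM. The median sum was 27754 CPM in the control group and 19019 CPM in the high-fat group. Summed macrophage markers ran from 274 to 818 CPM in the control group and from 239 to 1407 CPM in the high-fat group, and all 8 of them had the higher mean in the high-fat group. The same count was 1 of 12 fast fibre, 1 of 8 slow fibre, 0 of 5 nerve and 2 of 4 general muscle fibre markers. It was 3 of 7 adipocyte, 4 of 6 matrix and fibroblast, 4 of 5 endothelial and 1 of 3 red cell markers. Control animal 5 stood apart in nerve markers, as given with Slc2a1 below. A bulk library cannot tell fewer cells of a type from less RNA per cell, and this holds for every level given here. Counts are not adjusted for transcript length, so each gene is compared only with itself across animals.

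The mother's diet left the 8 genes with broadly overlapping levels. None was called, at a Benjamini-Hochberg adjusted p under 0.05 in the quasi-likelihood F test of edgeR, and none had an unadjusted p under 0.05. Over all genes 0 of 10814 (0%) were called, 523 (4.84%) had an unadjusted p under 0.05, and the smallest adjusted p was 0.471. The count was 7 with DESeq2, 8 with the likelihood ratio test of edgeR and 0 with limma voom, with no member among them. The high-fat and control values overlapped for all 8 members, whereas 40 of the 10814 genes (0.370%) had groups that did not overlap. Of the 8 log2 fold changes (high-fat over control) 2 were above 0 and 6 below, with a median of -0.04 against 0.00 over all genes.

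Slc2a4 was measured at 567.7 to 1055 CPM in the control group, with a median of 797 CPM. The high-fat animals 1 to 5 had 677, 914, 710, 795 and 599 CPM. All 5 high-fat values lay inside the control range, and 4 of the 5 were below the control mean. The means were 802 ± 184 CPM (SD, n = 6) and 739 ± 120 CPM (SD, n = 5). The log2 fold change was -0.12 ± 0.17 (SE), with a 95% interval from -0.48 to 0.24. It was -0.02 without control animal 6 and -0.21 without high-fat animal 2. The two-sided exact permutation test on mean log2 CPM over all 462 splits gave p = 0.584.

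Slc2a1 had the widest spread of the 8 genes, and 1 control animal added to it. Within the high-fat group its coefficient of variation, 24.2%, was also the largest of the 8. Control animal 5 had 22.8 CPM, while the other 5 control animals had 7.75 to 12.96 CPM and the high-fat animals 12.9, 9.48, 7.28, 13.8 and 12.3 CPM. The gene rests on 87 to 333 counts per library, so its counting error reached 10.7% in the library with fewest, against a coefficient of variation of 38.0% over the animals. The log2 fold change was -0.08 ± 0.28 (SE; 95% interval -0.68 to 0.51) with all animals and 0.19 without control animal 5, and the sign also turned without high-fat animal 3 (0.03). None of these values passed the test.

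The same library carried a high level of nerve transcripts. The 5 Schwann cell and nerve markers summed to 1616 CPM in control animal 5 and to between 48.7 and 186 CPM in the other 10 animals. Myelin basic protein (Mbp) had 843 CPM there and 12.97 to 96.7 CPM elsewhere. Periaxin (Prx), a protein of myelinating Schwann cells, had 112 CPM and S100b 147 CPM, each the highest of the 11 libraries, and no marker was at 0 in any library. Across the 11 animals log2 CPM of Slc2a1 had Pearson's r of 0.78 with the log2 nerve sum (permutation p = 0.0138, adjusted over all genes 0.9998) and Spearman's rho of 0.64 (permutation p = 0.0402, adjusted 1.00). The r was 0.63 without control animals 2 and 5, the pair farthest from the median, and 0.36 without control animal 5 alone, so the relation rests in part on that animal. The 3 genes most like Slc2a1 over the 11 libraries were Reln, Cldn1 and Gldn, each with r = 0.87, and each was also highest in control animal 5. Cldn1 had 17.9 CPM there and 2.16 to 7.94 CPM elsewhere. Cldn1 encodes a tight junction claudin, and Gldn encodes gliomedin, a Schwann cell protein of the node of Ranvier. The part of nerve tissue in the Slc2a1 level was not tested.

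Hk2 ran from 55.4 to 102.6 CPM in the control group, with a median of 71.0 CPM. The high-fat animals had 88.4, 88.5, 70.7, 94.5 and 77.1 CPM. The high-fat values sat in a narrow band inside the control range, 4 of 5 above the control mean. The log2 fold change was 0.13 ± 0.15 (SE; 95% interval -0.19 to 0.45), from means of 76.8 ± 17.4 CPM (SD, n = 6) and 83.9 ± 9.66 CPM (SD, n = 5).

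Gys1 ran from 429 to 589 CPM in the control group, with a median of 463 CPM. The high-fat animals had 381, 578, 452, 523 and 426 CPM. The high-fat group held the second highest and the lowest values of all, and the means of 486 ± 60.9 CPM (SD, n = 6) and 472 ± 78.6 CPM (SD, n = 5) lay within that spread. The log2 fold change was -0.04 ± 0.13 (SE; 95% interval -0.32 to 0.23). Gbe1, whose product adds the branches that make glycogen compact and soluble, ran from 165 to 256 CPM in the control group, with a median of 233 CPM. Its high-fat values were 195, 228, 214, 245 and 209 CPM. All 5 fell inside the control range, and the log2 fold change was -0.04 ± 0.12 (SE; 95% interval -0.30 to 0.22).

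The 2 isoforms of glycogen synthase kinase 3 come from separate genes. Gsk3a had 52.5 to 63.0 CPM in the control group, with a median of 56.4 CPM. The high-fat animals had 50.6, 63.4, 51.8, 59.4 and 50.3 CPM. It was the steadiest of the 8 genes, with a coefficient of variation of 8.35% over the 11 animals, and 10.8% of the 3172 genes within a 2-fold range of its level had a lower one. The log2 fold change was -0.04 ± 0.09 (SE), with the narrowest interval of the set, -0.24 to 0.16. Gsk3b had 12.6 to 22.0 CPM in the control group, with a median of 17.8 CPM, on 134 to 377 counts over all libraries. The high-fat animals had 23.3, 17.4, 19.5, 17.6 and 22.5 CPM. High-fat animals 1 and 5 were the highest of all 11 and control animal 4 was the lowest. Gsk3b had the largest fold change of the 8 in size, 0.17 ± 0.14 (SE; 95% interval -0.12 to 0.47; exact permutation p = 0.232), and it did not pass the test.

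Pygm ran from 1689 to 2691 CPM in the control group, with a median of 2075 CPM. The high-fat animals had 2027, 2497, 1593, 2259 and 1556 CPM. High-fat animals 3 and 5 were the lowest of the 11 and control animal 6 the highest. The log2 fold change was -0.07 ± 0.16 (SE; 95% interval -0.42 to 0.29), from means of 2083 ± 372 CPM (SD, n = 6) and 1987 ± 411 CPM (SD, n = 5).

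**Figure D1:**
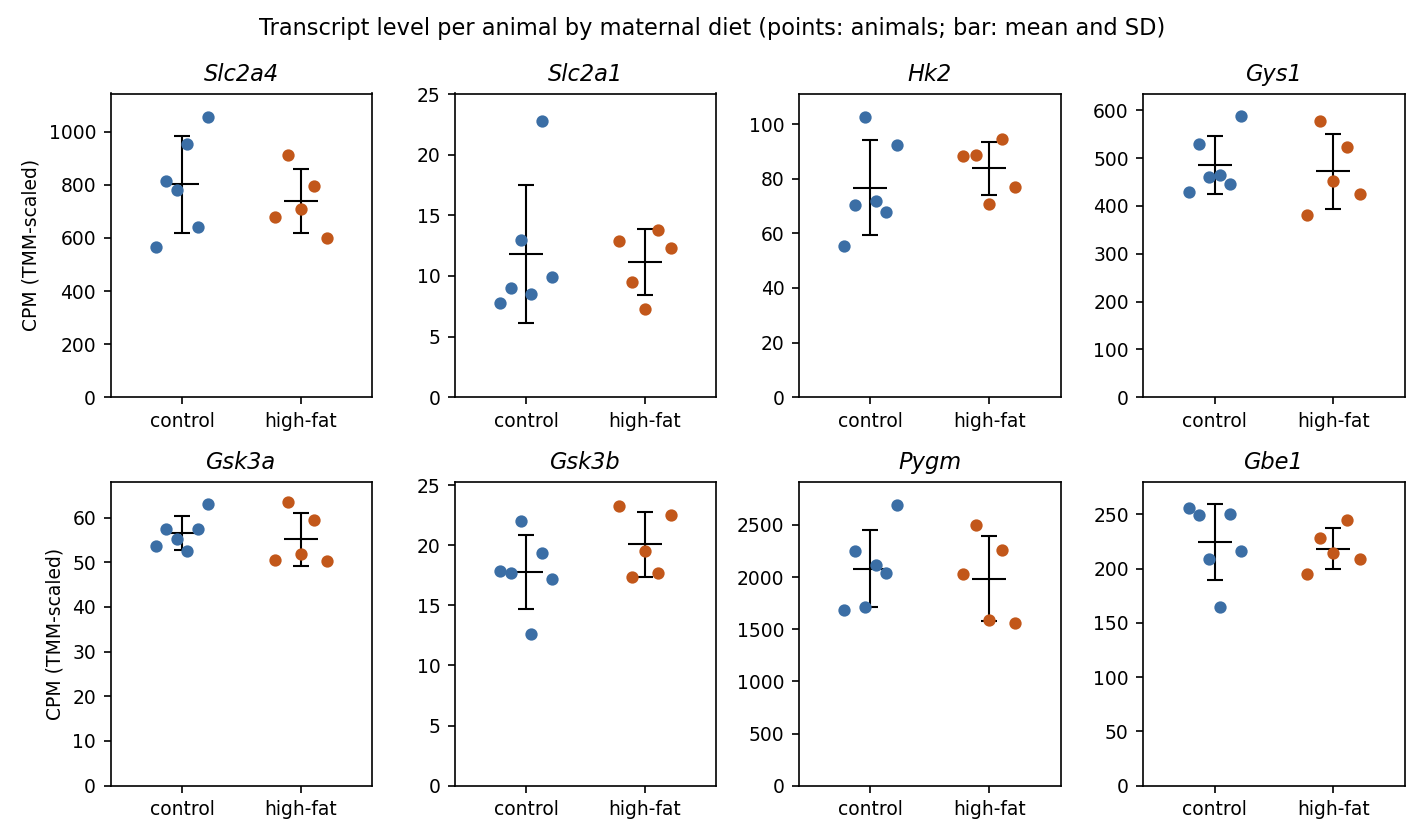
TMM-scaled CPM (vertical axis, from 0) of each of the 8 measured genes in every animal, by the mother's diet; points are animals and bars the mean and SD of 6 control and 5 high-fat animals. The groups overlap for every gene, and the control animal at 22.8 CPM stands above the rest for Slc2a1.

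**Figure D2:**
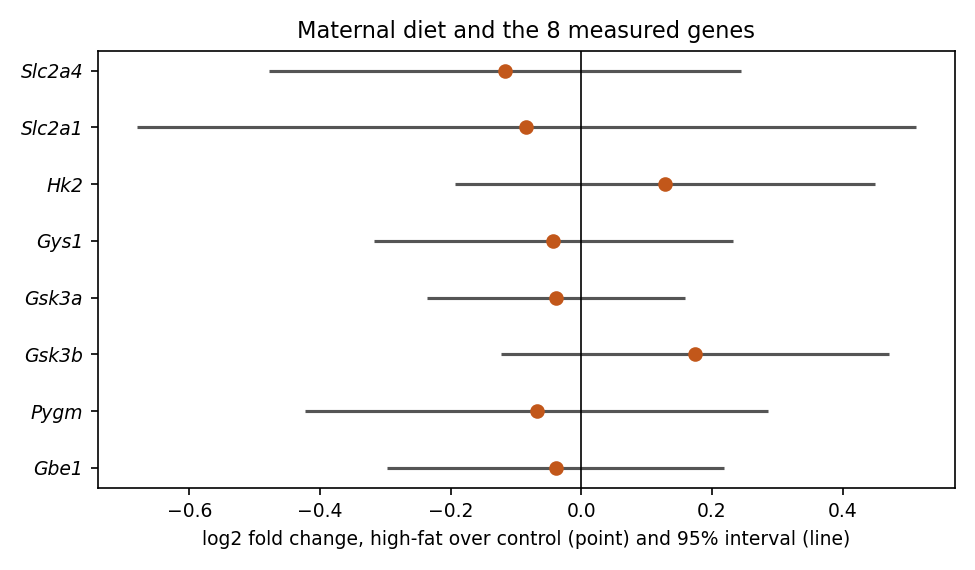
Log2 fold change of high-fat over control (horizontal axis) for the 8 genes, with 95% intervals from edgeR's quasi-likelihood fit. Every interval includes 0, from the narrow one of Gsk3a (-0.24 to 0.16) to the wide one of Slc2a1 (-0.68 to 0.51).

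A set of 4 genes kept a similar order across the 11 animals. Pearson's r of log2 CPM over the 11 animals was 0.90 between Gys1 and Gsk3a, 0.81 between Gsk3a and Pygm, 0.78 between Slc2a4 and Gys1, 0.77 between Slc2a4 and Pygm, 0.75 between Gys1 and Pygm, and 0.62 between Slc2a4 and Gsk3a. The permutation p of Gys1 with Gsk3a was 0.00024, or 0.130 after adjustment over all genes, and no pair among the 8 passed that adjustment. The set was named from these same r, and many other genes were closer. Of 10813 other genes, 810 (7.49%) had a higher r with Slc2a4 than Gsk3a had, 211 (1.95%) than Gys1 had and 219 (2.03%) than Pygm had. With Pygm, 280 (2.59%) had a higher r than Gys1 had. With Gsk3a, 5 (0.0462%) had a higher r than Gys1 had. Without the 2 animals farthest from the median of either gene of a pair, r was 0.77 in both cases for Gys1 with Gsk3a, 0.61 and 0.67 for Gsk3a with Pygm, 0.68 and 0.59 for Slc2a4 with Gys1, 0.64 and 0.60 for Slc2a4 with Pygm, 0.49 and 0.63 for Gys1 with Pygm, and 0.50 and 0.28 for Slc2a4 with Gsk3a. Gsk3b ran the other way. To Slc2a4 it had r = -0.59 (permutation p = 0.0524, adjusted 0.295) and rho = -0.76 (permutation p = 0.00819, adjusted 0.203), and to Gys1 r = -0.47 (permutation p = 0.149, adjusted 0.557) and rho = -0.81 (permutation p = 0.00396, adjusted 0.239). Control animal 6 was highest for Slc2a4, Gys1 and Pygm and second for Gsk3a, and it ranked 10 of 11 for Gsk3b. High-fat animal 5 ranked 10 or 11 for those 4 genes and was second highest for Gsk3b. Hk2, Slc2a1 and Gbe1 stood apart from this order, with r between -0.35 and 0.52 to each of the 4. All values share the libraries and their scaling. Of the 11 libraries, control animal 6 had the lowest TMM factor (0.897) and high-fat animal 5 the highest (1.12). The part of scaling in this order was not tested.

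**Figure D3:**
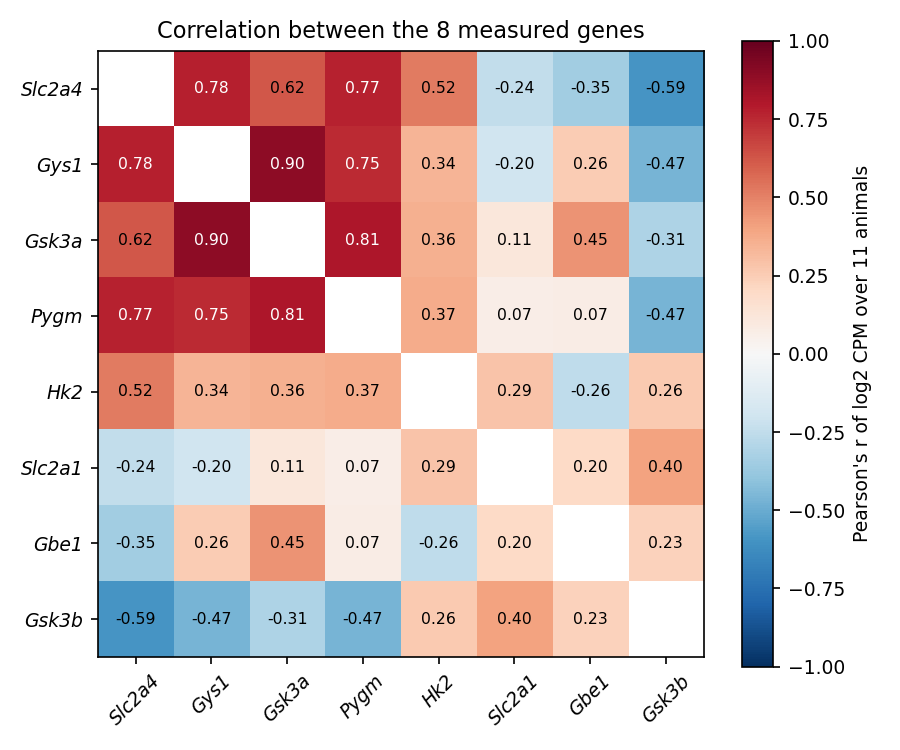
Pearson's r of log2 CPM between each pair of the 8 genes over 11 animals (colour scale from -1 to 1, value in each cell). Slc2a4, Gys1, Gsk3a and Pygm form a block of r from 0.62 to 0.90, and Gsk3b has negative values with each of them.

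Promoter sequence is shown for Pygm, Gys1 and Gsk3a, 3 genes of that block, so that the DNA ahead of genes whose levels ran together can be compared. Each is the RefSeq window on assembly GRCr8 from 250 bases before to 50 after the annotated start, 5′ to 3′ on the gene's strand, and capitals mark the E-box CANNTG, the motif bound by MyoD and other helix-loop-helix factors. The positions are chr1:213119555-213119854 on the plus strand for Pygm, chr1:105051666-105051965 on the plus strand for Gys1 and chr1:89953465-89953764 on the minus strand for Gsk3a.
Pygm: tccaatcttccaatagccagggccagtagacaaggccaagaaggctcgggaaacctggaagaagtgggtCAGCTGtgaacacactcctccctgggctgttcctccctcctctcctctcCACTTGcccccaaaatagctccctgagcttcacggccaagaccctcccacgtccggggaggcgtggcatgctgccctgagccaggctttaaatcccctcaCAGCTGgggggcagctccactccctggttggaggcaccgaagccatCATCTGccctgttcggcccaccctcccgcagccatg
Gys1: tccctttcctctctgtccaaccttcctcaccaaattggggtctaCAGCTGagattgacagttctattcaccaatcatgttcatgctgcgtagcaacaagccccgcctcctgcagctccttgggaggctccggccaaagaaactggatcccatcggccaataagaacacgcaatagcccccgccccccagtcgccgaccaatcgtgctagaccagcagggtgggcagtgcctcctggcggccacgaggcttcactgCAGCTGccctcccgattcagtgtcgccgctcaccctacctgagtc
Gsk3a: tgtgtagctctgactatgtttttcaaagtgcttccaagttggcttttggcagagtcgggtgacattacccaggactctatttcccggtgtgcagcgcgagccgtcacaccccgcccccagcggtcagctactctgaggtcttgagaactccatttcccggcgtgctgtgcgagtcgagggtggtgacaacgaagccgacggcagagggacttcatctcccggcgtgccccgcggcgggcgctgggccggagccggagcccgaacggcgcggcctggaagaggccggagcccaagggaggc
The window of Pygm holds 4 E-boxes, that of Gys1 holds 2 (both CAGCTG) and that of Gsk3a holds none. CANNTG was found in 72.1% of the 33469 RefSeq promoter windows of the same 300 bases, so it is a common run of letters. On both strands, GC boxes (GGGCGG, in 33.1% of windows) numbered 0 for Pygm, 1 for Gys1 and 1 for Gsk3a, and TATAAA (14.2%) was found in none of the 3. A match is a description of the letters and no site of binding, and Slc2a4 is named here without a sequence.

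The genes most like each member over the 11 libraries, the 3 with the highest r among all genes tested, were as follows. Pygm ran most closely with Pfkm, the muscle phosphofructokinase that commits glucose phosphate to glycolysis, with r = 0.98 and rho = 0.99. The permutation p was 1e-05 for both, the smallest the resamples can give, or 0.0270 for r and 0.0541 for rho after adjustment. Next came Srp68 (r = 0.94) and Mylk3 (r = 0.94), with an adjusted permutation p of rho of 0.0569 and 0.0649. By rho none of the 3 was under 0.05. Pfkm had 598 CPM in high-fat animal 5 and 1007 CPM in control animal 6, the same animals that were lowest and highest for Pygm. Pygm had 101 of 10813 other genes with an adjusted permutation p of r under 0.05, 37 of them with a positive r, and the other 7 members had 0. The resamples limit these counts, as a gene at their smallest p passes only where enough other genes lie near it. Gsk3b with Tmem209 also had that smallest permutation p of r, or 0.0772 after adjustment. The counts thus cannot be read as a trait of Pygm. The highest r were 0.94 with Tcta, 0.93 with Rxrb and 0.92 with Sgca for Slc2a4, and 0.97 with Fam160b2, 0.94 with St8sia5 and 0.93 with Rtn4ip1 for Gys1. For Gsk3a they were 0.93 with Unc45b, a myosin chaperone, 0.93 with Aldh4a1 and 0.92 with Nkiras2. For Gsk3b they were 0.92 with Ttc26, 0.91 with Tmem209 and 0.91 with Cast. For Gbe1 they were 0.95 with Ppp3r1, 0.93 with Rab10 and 0.93 with Ankrd6. Hk2 had 0.91 with Cope, 0.87 with Ubp1 and 0.87 with Insr, the insulin receptor. These are likenesses of level over 11 libraries and say nothing of a shared role.

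Fast and slow fibres use glycogen differently, and the libraries differed in fast fibre transcripts. In a fit on the log2 summed level of the 12 measured fast fibre markers, 24 of 10802 other genes (0.222%) were called and 2068 (19.1%) had an unadjusted p under 0.05. Tnnt3 and Myl1 made up most of that sum, with 28055 and 11942 of the 48070 CPM in control animal 4. Not every marker followed it. In control animals 4 and 6, which had the highest sums, Tnni2 had 1610 and 1327 CPM but Actn3 only 10.4 and 10.5 CPM. Actn3 had 222 CPM in control animal 5. No member was called. Pygm had a slope of 0.22 ± 0.09 log2 units (SE) per doubling of the fast fibre sum, with an unadjusted p of 0.0355 and an adjusted p of 0.228 in edgeR's quasi-likelihood F test. Slc2a4 had a slope of 0.22 ± 0.10 (SE), with an unadjusted p of 0.0390 and an adjusted p of 0.233 in the same edgeR fit. Gsk3b had a negative slope of -0.20 ± 0.09 (SE; edgeR unadjusted p = 0.0571, adjusted 0.277). The slopes of the other 5 members ran from -0.19 for Slc2a1 to 0.11 for Gys1, and their intervals included 0. With both extremes of the low end left out, control animal 3 and high-fat animal 4, r with the fast fibre sum rose from 0.58 to 0.92 for Slc2a4, from 0.62 to 0.87 for Pygm, and went from -0.59 to -0.70 for Gsk3b. In the same way r went from 0.38 to 0.67 for Gys1, from 0.29 to 0.60 for Gsk3a, from -0.34 to -0.40 for Gbe1 and from -0.27 to -0.08 for Slc2a1, and for Hk2 it turned from -0.15 to 0.51. Slow fibre markers did not fall as the fast fibre sum rose. Of these, 6 of 8 had positive slopes (median 0.08), 2 with an unadjusted p under 0.05 in edgeR. All 4 general muscle fibre markers had positive slopes too (median 0.27), 2 with an unadjusted p under 0.05, and neither list held a called gene. Other cell types also moved along this axis. All 8 macrophage markers had negative slopes (median -0.70) and an unadjusted p under 0.05, as had all 6 matrix and fibroblast markers (median -0.69), and 4 of 7 adipocyte markers had a negative slope with an unadjusted p under 0.05, though none of these 3 lists held a called gene. The part of fibre make-up or of these cell types in the slopes, and in the order the 4 genes shared, was not tested.

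**Figure D4:**
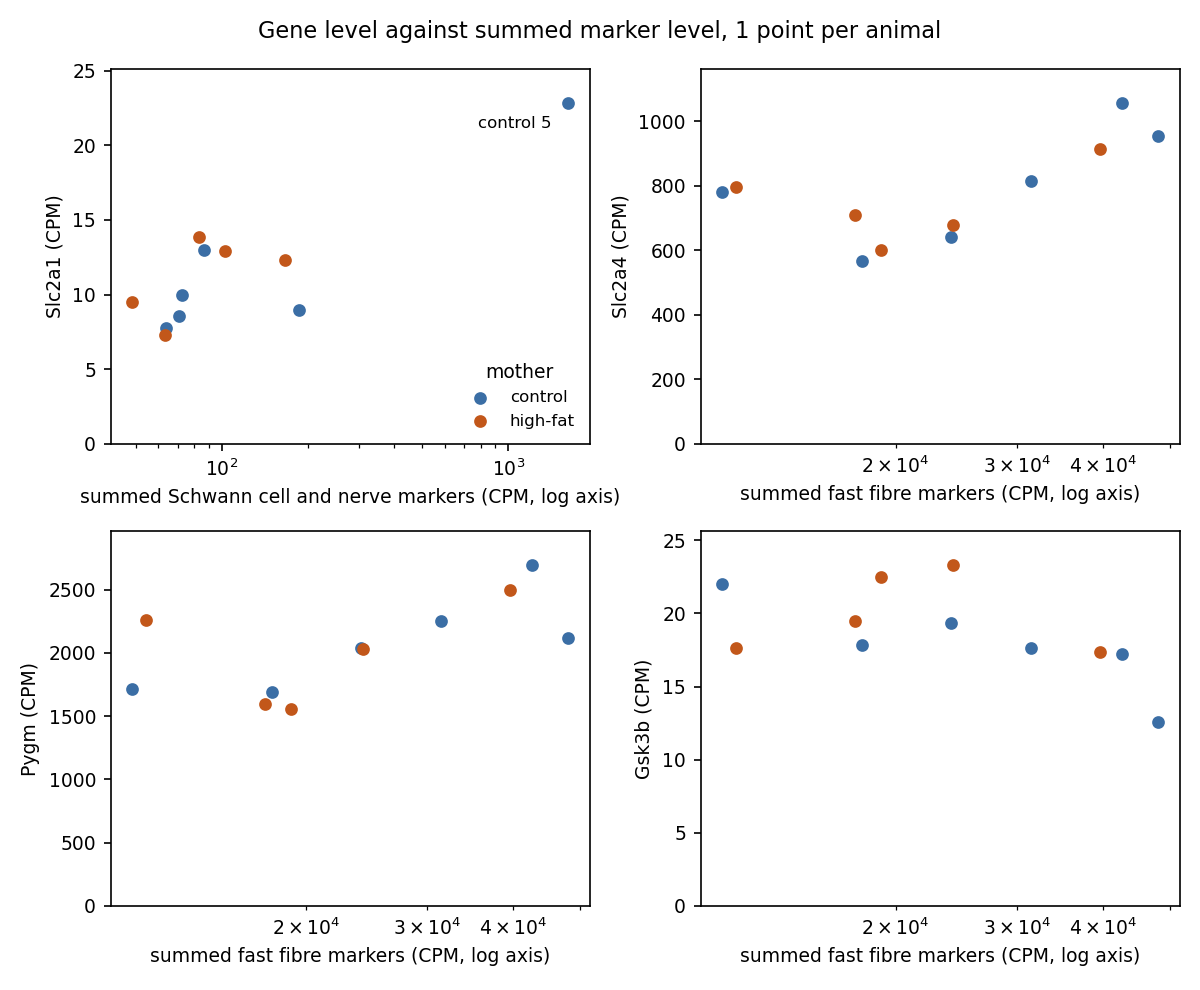
CPM of Slc2a1 against summed Schwann cell and nerve markers, and of Slc2a4, Pygm and Gsk3b against summed fast fibre markers (horizontal log axes, CPM; vertical axes from 0), 1 point per animal coloured by the mother's diet. The library of control animal 5 lies alone at 1616 CPM of nerve markers. Over all 11 animals r with the log2 fast fibre sum is 0.58 for Slc2a4 and 0.62 for Pygm (adjusted permutation p 0.305 and 0.265). Over the 9 animals other than the 2 at the low end of that axis r is 0.92 for Slc2a4 and 0.87 for Pygm.

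The labels give plasma insulin and glucose for 10 animals (high-fat animal 5 has neither and is left out of those fits) and fat weights for all 11. Total fat in the labels is the sum of mesenteric, perirenal and abdominal fat, so it contains the abdominal fat that is fitted separately. Insulin ran from 1.357 to 2.076 ng/ml in the control group and from 1.566 to 2.652 ng/ml in the high-fat group. Glucose, in mmol as the labels write it, was 5.04 to 7.92 in the control group, where animals 1 to 3 share the value 6.36, and 5.40, 6.42, 6.60 and 10.98 in high-fat animals 1 to 4. Total fat was 3.74 to 8.52% of body weight in the control group and 4.51 to 16.3% in the high-fat group, with high-fat animal 1 at the top. The label of that animal gives 99.1 g of total fat at a body weight of 609 g, a share well above the 3.74 to 10.5% of the other 10. Most of that total is its perirenal fat. The weights themselves could not be checked here, so slopes on total fat share are also given without this animal where they changed most. Abdominal fat was 6.96 to 14.7 g against 13.6 to 18.0 g.

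None of the 8 genes was called for its slope on insulin, glucose, total fat share or abdominal fat, and none had an unadjusted p under 0.05 for any of the 4. Over all genes, edgeR called 0 (0%) for insulin, 24 (0.222%) for glucose, 1 (0.00925%) for total fat share and 0 (0%) for abdominal fat. The shares with an unadjusted p under 0.05 were 3.48%, 8.61%, 8.64% and 3.73%, and limma voom called 0, 21, 2 and 0 genes. The 24 genes of the glucose fit rested on high-fat animal 4, the animal with 10.98 mmol, and were 0 without it. The gene called for total fat share was Pnpla2, the adipose triglyceride lipase, with a slope of 0.11 ± 0.01 (SE) per percent of body weight. Without high-fat animal 1 there were 0 genes called, and without control animal 1 also 0. The count stayed the same in 5 alternatives and moved in 12.

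On insulin, the main signal for GLUT4 to reach the surface, the slope of Slc2a4 was -0.07 ± 0.19 log2 units (SE) per ng/ml, with a 95% interval from -0.48 to 0.34. Hk2 had 0.07 ± 0.18 (SE) and Gsk3b 0.08 ± 0.16 (SE), and the other 5 members had slopes from -0.10 for Slc2a1 to -0.01 for Gbe1. Pearson's r of the 8 genes with insulin lay between -0.25 for Gsk3a and 0.19 for Gsk3b. The median size of r over all genes was 0.22, and only Gsk3a was above it in size. For Slc2a4 r was -0.07 and rho 0.24 (permutation p = 0.854 and 0.511), and r was 0.01 without high-fat animals 3 and 4, the pair farthest from the median. The sign of the relation thus differed between these measures of it.

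Glucose gave the highest correlations. Gsk3a had r = 0.51 (permutation p = 0.131, adjusted over all genes 0.738) and rho = 0.56, Gys1 had r = 0.48 (p = 0.166 by permutation, adjusted 0.762) and rho = 0.55, and Gbe1 had r = 0.44 (p = 0.183 by permutation, adjusted 0.775) and rho = 0.29. The median size of r over all genes was 0.27. Without control animal 6 and high-fat animal 4, r was 0.45 for Gsk3a, 0.42 for Gys1 and 0.76 for Gbe1. Hk2 fell from 0.39 to -0.07, Pygm from 0.30 to -0.28 and Slc2a4 from 0.17 to -0.26, so those 3 relations rest on these animals. Within the 6 control animals, r with glucose was 0.88 for Gsk3a (exact permutation p = 0.05), the smallest of the 32 p-values computed within that group for 8 genes and 4 measures. The slopes on glucose were 0.03 ± 0.03 log2 units per mmol (SE) for Gsk3a, 0.06 ± 0.04 (SE) for Gys1 and 0.05 ± 0.04 (SE) for Gbe1, and each 95% interval included 0. Without high-fat animal 4 they were larger, at 0.10 for Gsk3a, 0.16 for Gys1 and 0.12 for Gbe1, and none was called.

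No relation to either fat measure passed the test. With total fat share r lay between -0.24 for both Gbe1 and Gys1 and 0.26 for Hk2, and with abdominal fat between -0.24 for Gsk3b and 0.11 for Pygm. The slope of Slc2a4 was 0.00 ± 0.03 log2 units (SE) per percent of body weight and 0.01 ± 0.03 (SE) per g of abdominal fat. Several relations turned on high-fat animals 1 and 4, the farthest from the median of total fat share. Without them r with total fat share went from 0.05 to 0.43 for Slc2a4, from -0.24 to 0.38 for Gys1 and from 0.14 to -0.50 for Gsk3b. Without high-fat animal 1 alone the slope on total fat share was 0.05 for Slc2a4, 0.04 in place of -0.01 for Gys1, 0.02 in place of 0.00 for Gsk3a and -0.05 in place of 0.01 for Gsk3b. In the 32 correlations of 8 genes with 4 measures, the adjusted permutation p was never under 0.738, and no gene of the table passed that adjustment for any measure.

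**Figure D5:**
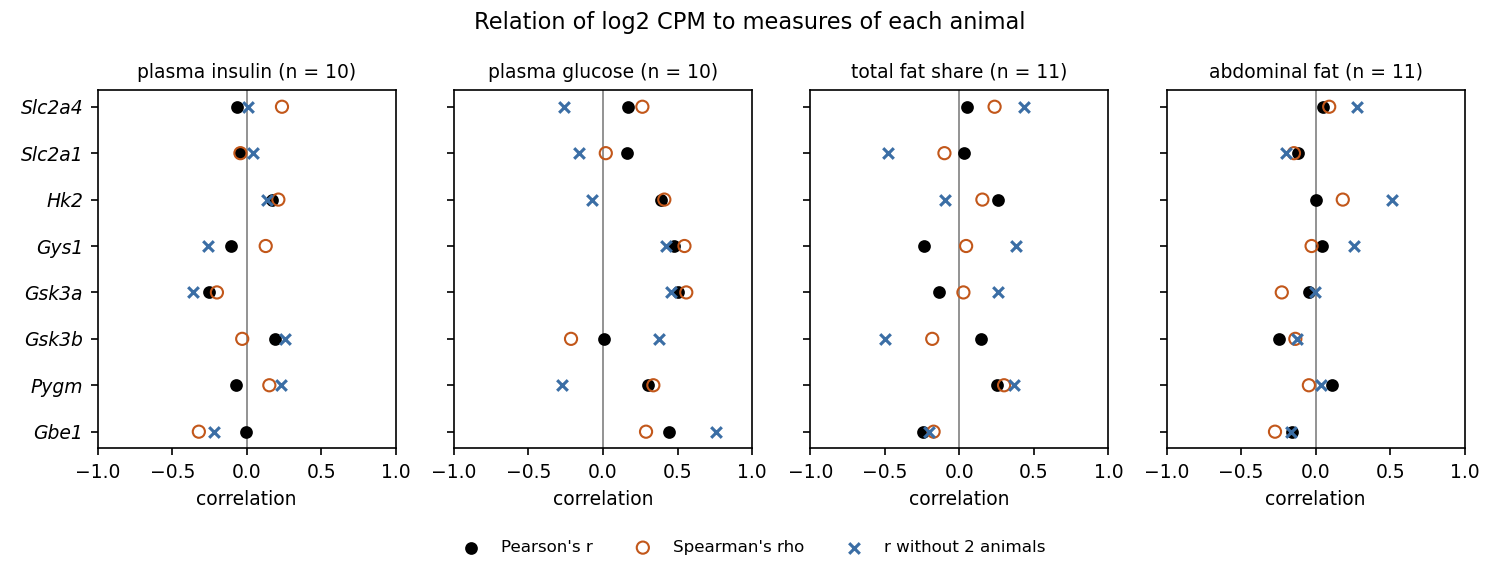
Correlation of log2 CPM with plasma insulin, plasma glucose (10 animals each), total fat share and abdominal fat (11 animals each) for the 8 genes: filled points are Pearson's r, open circles Spearman's rho and crosses r without the 2 animals farthest from the median of the measure. The marks of Gys1 and Gsk3a stay between 0.42 and 0.56 for glucose, while many others cross 0 when 2 animals are left out.

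A list of 63 other genes of glucose transport and glycogen handling, of which 50 passed the filter, gave 0 called for diet, with 27 above 0 and 23 below and a median of 0.05. An unadjusted p under 0.05 was found for 2 of the 50, against 4.84% of all genes, namely Slc2a5, the fructose transporter GLUT5, and Stbd1, a glycogen-binding protein. Slc2a5 had 0.548 to 1.88 CPM in the control group and 1.08, 1.39, 2.18, 4.46 and 3.16 CPM in the high-fat animals. These low levels rest on few counts. The groups overlapped, and the log2 fold change was 1.15 ± 0.43 (SE; edgeR unadjusted p = 0.0197, adjusted 0.974). Stbd1 had 108 to 135 CPM in the control group and 105, 163, 165, 262 and 136 CPM in the high-fat animals, with a log2 fold change of 0.46 ± 0.18 (SE; edgeR unadjusted p = 0.0258, adjusted 0.974), and 0.24 without high-fat animal 4. Lnpep, the aminopeptidase of GLUT4 vesicles, had 0.50 ± 0.25 (SE), and 0.30 without high-fat animal 5. The smallest p below 0 were those of Phkg1, the catalytic subunit of muscle phosphorylase kinase, at -0.37 ± 0.22 (SE), Pgm5 at -0.21 ± 0.14 (SE; -0.09 without control animal 3) and Mlx at -0.11 ± 0.08 (SE).

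By the role each was listed under, 5 of 8 other transporters, 7 of 11 genes of GLUT4 vesicle traffic, 1 of 5 of glycogen priming and synthesis, 5 of 8 of breakdown, 4 of 9 of phosphatase targeting and glycogen quality, 4 of 7 AMPK subunits and 1 of 2 glucose-sensing regulators were above 0 for diet. Pgm5 was listed under glycogen priming and synthesis, and whether its product acts there was not checked. No group had more than 1 gene with an unadjusted p under 0.05.

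On the measures the list also gave 0 called. For glucose 9 of 50 genes (against 8.61% of all genes) had an unadjusted p under 0.05, led by Slc2a13, a proton-coupled inositol transporter, at 0.19 ± 0.04 log2 units per mmol (SE; adjusted p = 0.109 in edgeR's quasi-likelihood F test), Ppp1r3c, which targets protein phosphatase 1 to glycogen, at 0.21 ± 0.04 (SE), and Stbd1 at 0.19 ± 0.04 (SE). All 3 were highest in high-fat animal 4. Ppp1r3c had 731 CPM in that animal and 224 to 358 CPM in the other 10, and its slope was -0.03 without it. The slope of Stbd1 was 0.06 without it, and that of Slc2a13 was 0.26. The lowest p below 0 were those of Prkag2, an AMPK subunit, at -0.18 ± 0.06 (SE), Vamp2 at -0.05 ± 0.03 (SE) and Sort1 at -0.10 ± 0.05 (SE). Without high-fat animal 4 Vamp2 had -0.13 and Sort1 0.02.

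For insulin the leading genes were Stbd1 at 0.51 ± 0.20 log2 units per ng/ml (SE), Slc2a5 at 1.04 ± 0.46 (SE) and Ppp1r3c at 0.52 ± 0.24 (SE), of which Ppp1r3c was -0.15, Stbd1 0.12 and Slc2a5 0.29 without high-fat animal 4. Below 0 they were Pgm5 at -0.24 ± 0.16 (SE), Sort1 at -0.20 ± 0.17 (SE) and Nhlrc1 at -0.30 ± 0.29 (SE). These went to -0.10 for Pgm5 without control animal 3, -0.01 for Sort1 without high-fat animal 4 and -0.18 for Nhlrc1 without high-fat animal 3. For abdominal fat Slc2a5, at the low counts given above, led with 0.30 ± 0.05 log2 units per g (SE; edgeR adjusted p = 0.353). The value was 0.28 without high-fat animal 4. Stbd1 had 0.06 ± 0.03 (SE) and Ppp1r3c 0.07 ± 0.04 (SE), against -0.06 ± 0.02 (SE) for Pgm5, -0.05 ± 0.03 (SE) for Prkaa1 and -0.04 ± 0.02 (SE) for Sort1. Without high-fat animal 4 the slope was 0.01 for Stbd1, -0.02 for Ppp1r3c and -0.02 for Sort1, and without control animal 3 it was -0.02 for both Pgm5 and Prkaa1. For total fat share the order was Gyg1, the glycogenin that primes glycogen, at 0.04 ± 0.02 (SE), Ppp1r3c at 0.07 ± 0.04 (SE) and Ppp1ca at 0.02 ± 0.01 (SE), and below 0 Slc2a10 at -0.18 ± 0.05 (SE), Prkaa2 at -0.07 ± 0.02 (SE) and Pgm5 at -0.05 ± 0.02 (SE). Without high-fat animal 1 the slope of Prkaa2 was -0.04 and that of Ppp1r3c 0.14, without high-fat animal 4 that of Ppp1r3c was 0.02, and without control animal 3 that of Pgm5 was -0.03. With the fast fibre sum, 9 of 50 genes had an unadjusted p under 0.05 against 19.1% of all genes. Phkg1 had a slope of 0.42 ± 0.12 (SE), Nhlrc1 0.37 ± 0.14 (SE) and Pgm1, which turns glucose 6-phosphate toward glycogen, 0.19 ± 0.06 (SE). Pygb, the brain phosphorylase, had -0.32 ± 0.10 (SE), Stbd1 -0.31 ± 0.13 (SE) and Prkaa1, an AMPK catalytic subunit, -0.26 ± 0.11 (SE), and none of the 6 was called. Without high-fat animal 4 the slope of Stbd1 was -0.10, and without control animal 3 that of Prkaa1 was -0.16.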

How the data were processed

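Poly(A) RNA of soleus muscle from 11 animals was sequenced for 36 cycles, per the labels' protocols. The authors deposited 1 table of raw counts per gene symbol. FastQC, BWA, HTSeq and edgeR are named in the submitters' processing notes, and the genome build, annotation and treatment of strand are each not given in the sources used here, so positions of the counted genes are left out, and those printed are of RefSeq promoter windows on GRCr8. Short reads can be split between near-identical genes. Columns were matched to animals by animal name and grouped by the diet label. Control animals 1 to 6 are C73, A110, C60, H10, A89 and A75. High-fat animals 1 to 5 are C91, H1, C25, H20 and A37, which carry the numbers 1, 3, 4, 5 and 6 in the deposited column names. The rat was the replicate.

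Genes were kept by filterByExpr (edgeR 4.0.16, R 4.3.3) with the diet group, which removed 5996 and left 10814 (10820 with 10 animals). CPM are TMM-scaled. Diet and slopes were tested in edgeR by the quasi-likelihood F test, and p-values were adjusted over all genes after Benjamini and Hochberg, with a threshold of 0.05. Standard errors are the estimate divided by the square root of F. Log2 CPM used a prior count of 2, and correlations 100000 resamples. Alternatives were other scalings (RLE, upper quartile, library size), other filters, DESeq2 1.42.0, limma voom (3.58.1), the likelihood ratio test, covariates and leaving out each animal. Both kinds of test were checked on simulated data. Counting error is the inverse square root of the count and covers counting only.

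The rule for the 8 genes reads no values, but the genes, the lists and the tests were chosen with earlier results of these data known. Named in addition were, per comparison, the 3 listed pathway genes with the smallest p in each direction, and per member the 3 genes with the highest r. Some listed genes are not reported here by name, though they stayed in the fits and sums.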

Additional observations from a re-analysis of the deposited data

Results flagged for a closer look

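Within-group gaps were examined in 80 groups of 4 to 6 animals, over the 8 genes, the marker sums, the named pathway genes and the measures. A value was picked out where its gap to the nearest animal was over Dixon's 95% critical share of the group's range, which chance alone does in about 1 in 20 groups, and 7 values were. That rate does not hold for the named pathway genes, which were chosen by their p in these same data, glucose included. Slc2a1 in control animal 5 had 22.8 CPM, against 7.75 to 12.96 CPM in the other 5 control animals. The Schwann cell and nerve markers of the same library summed to 1616 CPM, against 63.6 to 186 CPM in the other control animals. Without control animal 5 the log2 fold change of Slc2a1 was 0.19 in place of -0.08.

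In high-fat animal 4, which also has the highest glucose, Ppp1r3c had 731 CPM against 224 to 358 CPM in the rest of its group, and Slc2a13 had 56.1 CPM against 26.8 to 31.1 CPM. Slc2a13 was low in control animal 4, with 19.4 CPM against 32.3 to 38.7 CPM. Nhlrc1, the ubiquitin ligase malin, had 6.82 CPM in high-fat animal 2 against 3.35 to 4.33 CPM. Prkaa1 had 21.2 CPM in high-fat animal 5 against 13.9 to 15.5 CPM. The causes of these values were not tested.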

How the results depend on the processing

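The 8 genes had 800 slopes or fold changes under the alternatives, of which none was called. The smallest adjusted p was 0.0751, for Pygm on the fast fibre sum without high-fat animal 4, and 76 values changed sign, all of estimates whose intervals include 0. The same alternatives were run for the named pathway genes, a choice made after seeing the data, and of 599 such values 4 changed sign and 1 was called, Stbd1 on glucose without control animal 6 (edgeR adjusted p = 0.0240). Scaling moved the median diet fold change of all genes between -0.01 and 0.04. The labels carry no replicate numbers, but the deposited column names share 5 numbers between the groups. Same-numbered animals did not deviate together (r of deviations from the group means over genes from -0.35 to 0.04, with 0 of 5 over 0.1 and 0 of 5 high-fat animals closest to the control animal of their number), so the numbers were not taken as pairs. With the column number as a replicate block, added after seeing the data, 0 genes were called for diet, and Gbe1 turned to 0.00675.

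Counts of called genes moved as follows. For diet they were 7 with DESeq2 and 8 with the likelihood ratio test, and 0 without any 1 animal. For insulin they were 30 with HOMA-IR in its place and 0 to 3 without 1 animal. For glucose they were 1 with diet as a covariate, 8 with the fast fibre level as a covariate and 0 to 39 without 1 animal (0 without high-fat animal 4). For total fat share they were 2 with limma voom, 0 with total fat in g and 0 to 2 without 1 animal, and for abdominal fat 2 with no filter. For the fast fibre level they were 10 with RLE scaling, 2 with diet as a covariate and 1 (without control animal 3) to 50 (without high-fat animal 4) without 1 animal. The cause was not tested.

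Signs that changed are given as log2 values. For diet they were Slc2a1 0.0476 and Gbe1 0.000742 with the initial letter of animal names as covariate, and Pygm 0.0164 with the fast fibre level. For insulin they were Slc2a1 0.00442, Hk2 -0.0939, Gsk3b -0.0329 and Gbe1 0.0186 with diet as a covariate, Slc2a4 0.0544, Gys1 0.0126 and Pygm 0.0893 with the fast fibre level, and Slc2a4 0.000647, Slc2a1 0.00304, Gys1 0.00604, Gsk3a 0.00263, Pygm 0.00459 and Gbe1 0.00662 per unit of HOMA-IR. For glucose it was Slc2a1 -0.00722 with the fast fibre level. For total fat share they were Slc2a1 0.00488 and Gsk3b -0.00405 with diet, Slc2a1 0.00303 with limma voom, and Gys1 0.000499, Gsk3a 0.000368 and Gsk3b -0.000772 per g. For abdominal fat it was Gsk3a 0.0047 with diet. With library size alone the differences in mean log2 CPM were Slc2a1 0.0144 and Gbe1 0.00308. Spearman's rho had the other sign for insulin at Slc2a4 0.24, Gys1 0.13, Gsk3b -0.0303 and Pygm 0.15, for glucose at Gsk3b -0.21, for total fat share at Slc2a1 -0.10, Gys1 0.0455, Gsk3a 0.0273 and Gsk3b -0.18, and for abdominal fat at Hk2 0.18, Gys1 -0.0273 and Pygm -0.0455.

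Leaving out 1 animal gave these ranges where the sign changed or the value moved by over 1.5 times. For diet they were Slc2a4 -0.21 to -0.0233, Slc2a1 -0.18 to 0.19, Hk2 0.0496 to 0.23, Gys1 -0.13 to 0.0249, Gsk3a -0.0937 to -0.006, Gsk3b 0.0936 to 0.24, Pygm -0.16 to 0.0182, Gbe1 -0.11 to 0.00214, Stbd1 0.24 to 0.59, Lnpep 0.30 to 0.64 and Pgm5 -0.27 to -0.0913. For insulin they were Slc2a4 -0.21 to 0.00951, Slc2a1 -0.37 to 0.17, Hk2 -0.0558 to 0.19, Gys1 -0.14 to 0.0266, Gsk3a -0.14 to -0.0206, Gsk3b 0.00262 to 0.17, Pygm -0.15 to 0.11, Gbe1 -0.10 to 0.0603, Stbd1 0.12 to 0.62, Slc2a5 0.29 to 1.39, Ppp1r3c -0.15 to 0.80, Pgm5 -0.32 to -0.10, Sort1 -0.44 to -0.0129 and Nhlrc1 -0.50 to -0.18. For glucose they were Slc2a4 0.00132 to 0.10, Slc2a1 -0.13 to 0.0756, Gys1 0.0401 to 0.16, Gsk3a 0.0274 to 0.10, Gsk3b -0.0473 to 0.0164, Pygm 0.0253 to 0.10, Gbe1 0.0216 to 0.12, Ppp1r3c -0.0325 to 0.23, Stbd1 0.0558 to 0.22, Vamp2 -0.13 to -0.0465 and Sort1 -0.13 to 0.0151. For total fat share they were Slc2a4 -0.00653 to 0.0522, Slc2a1 -0.0449 to 0.0215, Hk2 0.0112 to 0.0367, Gys1 -0.0189 to 0.0351, Gsk3a -0.00927 to 0.0194, Gsk3b -0.0459 to 0.0192, Pygm 0.00917 to 0.0566, Gbe1 -0.0193 to 0.00152, Ppp1r3c 0.022 to 0.14, Prkaa2 -0.0835 to -0.042 and Pgm5 -0.0678 to -0.032. For abdominal fat they were Slc2a4 8.13e-05 to 0.0138, Slc2a1 -0.0571 to 0.00302, Hk2 -0.0223 to 0.0478, Gys1 -0.00509 to 0.0139, Gsk3a -0.00869 to 0.00214, Gsk3b -0.0269 to -0.00131, Pygm -0.00922 to 0.0248, Gbe1 -0.0258 to -0.00044, Stbd1 0.00554 to 0.10, Ppp1r3c -0.0159 to 0.10, Pgm5 -0.0684 to -0.0237, Prkaa1 -0.0626 to -0.0151 and Sort1 -0.0532 to -0.0165. For the fast fibre level they were Hk2 -0.12 to 0.0302, Gys1 0.0605 to 0.17, Gsk3a 0.0196 to 0.0893, Gsk3b -0.27 to -0.10, Pygm 0.17 to 0.34, Gbe1 -0.13 to 0.00243, Stbd1 -0.41 to -0.10 and Prkaa1 -0.34 to -0.16. Correlations changed sign without the 2 animals farthest from the median of the measure, for insulin at Slc2a4 0.00881, Slc2a1 0.0452 and Pygm 0.23, for glucose at Slc2a4 -0.26, Slc2a1 -0.16, Hk2 -0.071 and Pygm -0.28, for total fat share at Slc2a1 -0.48, Hk2 -0.10, Gys1 0.38, Gsk3a 0.26 and Gsk3b -0.50, and for abdominal fat at Hk2 0.51.

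Among the 8 genes depth limits Slc2a1 and Gsk3b most, with counting errors of up to 10.7% and 8.64%. The widest 95% interval for diet was that of Slc2a1, -0.68 to 0.51, and the narrowest that of Gsk3a, -0.24 to 0.16.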
